A study of Homo sapiens with 6 samples.

Results

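The genes described here are SPOCK1 and 9 other proteoglycan core protein genes, a list of 10, of which 9 have a line in the tables, beside 27257 genes with a line in all. They are SPOCK1, VCAN, BGN, DCN, LUM, HSPG2, GPC1, GPC4, SDC1 and SDC2, found by gene symbol and Entrez gene ID. The list was chosen with the difference between U87MG-LMO2 and U87MG-control known, on the same read counts used below, so the members' fold changes and calls are a description and carry no test. Of the 10 genes, 8 passed the filter on low counts, BGN did not pass it, and GPC4 was not analysed here.

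RNA-seq was performed on total RNA of U87MG, an established human cell line from a malignant glioma that was grown in serum-containing medium. In 3 libraries the cells had received a control lentivirus for 24 h (U87MG-control), and in 3 an LMO2 lentivirus for the same time (U87MG-LMO2). The comparison addresses how expression responds to added LMO2, a LIM-domain adaptor protein. The study's methods describe cloning of human LMO2 into a vector with the CMV promoter, so LMO2 was made at a level set by a viral promoter, and they do not name the insert of the control virus for this experiment. The labels do not say whether the libraries came from separate cultures, so p-values measure only the spread between these libraries, which may be technical.

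A proteoglycan is a core protein that carries long, sulfated sugar chains called glycosaminoglycans. The chains, among them heparan sulfate and chondroitin and dermatan sulfate, bind water, growth factors and matrix proteins, and the core protein decides where they sit: in the matrix, in a basement membrane or on the cell surface. In brain and in glioma the matrix is known to be rich in hyaluronan and chondroitin sulfate proteoglycans, and heparan sulfate on the cell surface acts as a co-receptor for growth factors.

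LMO2 itself stood at 0.38, 0.46 and 0.24 FPKM (fragments scaled to transcript length and to mapped reads) in the U87MG-control libraries and at 211.62, 192.56 and 507.93 FPKM in the U87MG-LMO2 libraries, so the levels followed the labels. Depth was 11428432 to 13537284 expected counts in U87MG-control and 14630627 to 17892955 in U87MG-LMO2. U87MG-LMO2 replicate 3, the library with the most LMO2, stood apart from the other U87MG-LMO2 libraries, with a chi-square per gene of 37.6 and 51.5 against them, whereas the remaining replicate pairs ranged from 2.24 to 10.6. Among these, U87MG-control replicate 1 was at 10.6 and 9.98 against U87MG-control replicates 2 and 3, which were at 2.24 against each other. Values without U87MG-LMO2 replicate 3 are given where leaving it out changed a call or a direction, or moved a fold change or a median by over 1.5 times. Of the astroglial markers, GFAP was at or below 0.26 FPKM in the 5 libraries with an intact value, and S100B, SOX2 and AQP4 were at or below 0.09 FPKM in all 6, and of the 4 astroglial markers tested 0 had an unadjusted p under 0.05 in edgeR's test. VIM, a mesenchymal and glial filament gene, was at a mean of 5166 FPKM in U87MG-control and 5366 FPKM in U87MG-LMO2. In the same list SLC1A3 was at a mean of 8.90 FPKM in U87MG-control and 6.15 FPKM in U87MG-LMO2, and NES at 7.93 and 7.47. OLIG2 was at 0.393 and 0.217 FPKM, and FABP7 was at or below 0.27 FPKM in all 6 libraries. The log2 fold changes were -0.47 ± 0.21 (SE) for SLC1A3, -0.05 ± 0.12 for NES and -0.75 ± 0.36 for OLIG2.

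The U87MG-LMO2 libraries had more SPOCK1, HSPG2 and GPC1 than the U87MG-control libraries, and all 3 genes passed an adjusted p of 0.05 in edgeR's quasi-likelihood test. SPOCK1 was 2.54-fold higher, HSPG2 3.13-fold and GPC1 1.62-fold. Of the 8 genes tested, 3 were called higher and 0 lower, beside 4.72% of all 16092 genes called higher and 2.75% called lower, 7.48% in either direction. The groups did not overlap for 4 of the 8 genes, all higher in U87MG-LMO2, beside 34.1% of all genes tested without overlap, 17.5% higher and 16.6% lower. The median log2 fold change of the 8 genes was 1.05, beside -0.01 for all genes tested. At an unadjusted p under 0.05 the edgeR counts were 5 higher and 0 lower, and DESeq2 also called 0 lower. Because the list was chosen on this comparison, nothing is read from these counts.

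The stretch around the transcription start is shown for HSPG2 and GPC1, the called genes with an entry in the RefSeq promoter table (GRCh38.p14), to let a reader see what kind of start these genes use. Each run holds 250 bases before and 50 bases after the start. LMO2 in blood cells is known to bridge proteins that bind E-box and GATA motifs, and STAT3 binds a split palindrome, so both strands were searched for the E-box letters CANNTG, for the letters GATA, and for TTCNNNGAA as the STAT motif. Matches are in capitals. The HSPG2 run lies at chr1:21937261-21937560 on the minus strand and the GPC1 run at chr2:240435413-240435712 on the plus strand.
HSPG2: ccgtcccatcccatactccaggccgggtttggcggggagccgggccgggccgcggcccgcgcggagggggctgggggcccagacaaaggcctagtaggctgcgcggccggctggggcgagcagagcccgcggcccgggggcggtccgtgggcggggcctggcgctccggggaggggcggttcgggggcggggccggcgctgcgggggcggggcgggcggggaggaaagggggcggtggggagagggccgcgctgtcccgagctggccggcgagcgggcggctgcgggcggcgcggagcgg
GPC1: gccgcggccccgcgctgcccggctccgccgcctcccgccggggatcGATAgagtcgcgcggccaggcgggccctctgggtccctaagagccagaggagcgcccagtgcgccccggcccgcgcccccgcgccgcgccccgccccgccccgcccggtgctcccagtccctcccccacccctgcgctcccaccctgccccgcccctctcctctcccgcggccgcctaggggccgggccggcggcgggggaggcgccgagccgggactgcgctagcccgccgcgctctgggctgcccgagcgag
Both runs were 83.3% G or C, while the median of the 35116 promoters in the table was 58.7% and 0.69% of them reached as high a share. The HSPG2 run held 0 matches and the GPC1 run 1, a GATA match in capitals. Over all promoters of the same length, 68.7% held the E-box letters, 49.7% the GATA letters and 7.7% the STAT motif. Of the members that were not called, the VCAN promoter held 1 E-box and 1 GATA match, the SDC1 promoter 2 E-box matches and the BGN promoter 0 matches. The promoter of GPC4, whose expression was not analysed here, held 0 matches. A match is a description of the letters only, and SPOCK1, DCN, LUM and SDC2 were not searched.

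SPOCK1 encodes testican-1, a secreted calcium-binding proteoglycan of the extracellular matrix. The gene lies at chr5:136975298-137598379 on the minus strand (GRCh38). SPOCK1 was at 6.57, 6.71 and 6.08 FPKM in U87MG-control and at 15.93, 16.66 and 15.14 FPKM in U87MG-LMO2. Every U87MG-LMO2 library was above every U87MG-control library, and the libraries of a group lay close together. The log2 fold change was 1.34 ± 0.10 (SE), and the counts behind it were 368 to 445 in U87MG-control and 1193 to 1330 in U87MG-LMO2. SPOCK1 was called in each of the 14 alternative fits, with log2 fold changes from 1.18 to 1.44. U87MG-LMO2 replicate 3 did not stand out for this gene, and the log2 fold change without it was 1.34.

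HSPG2 encodes perlecan, the large heparan sulfate proteoglycan of basement membranes. It lies at chr1:21822245-21937297 on the minus strand. HSPG2 was at 6.24, 7.40 and 7.96 FPKM in U87MG-control and at 19.88, 14.63 and 30.57 FPKM in U87MG-LMO2. The groups did not overlap, and the U87MG-LMO2 libraries differed among themselves, with replicate 3 the highest. The log2 fold change was 1.65 ± 0.27 (SE) over all 6 libraries and 1.25 without U87MG-LMO2 replicate 3. HSPG2 lost its call when any 1 of the U87MG-control libraries was left out, at log2 fold changes of 1.56 to 1.73. Its exons overlap those of LDLRAD2 on the opposite strand. Since the strand used in counting is not stated, reads in the stretch that both genes share could not be told apart.

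GPC1 encodes glypican-1, a heparan sulfate proteoglycan held on the cell surface by a lipid anchor. It lies at chr2:240435671-240468078 on the plus strand. GPC1 was at 17.73, 20.87 and 20.74 FPKM in U87MG-control and at 33.85, 26.39 and 32.78 FPKM in U87MG-LMO2. The groups did not overlap, and the lowest U87MG-LMO2 library was replicate 2. The log2 fold change was 0.70 ± 0.13 (SE). After a correction for GC content it was 0.41, while HSPG2 was at 1.36 and SPOCK1 at 1.44, and the 3 genes were still called. Their transcript GC contents were 66.7% for GPC1, 64.5% for HSPG2 and 44.3% for SPOCK1. GPC1 lost its call without U87MG-LMO2 replicate 1 and without any 1 of the U87MG-control libraries.

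**Figure D1:**
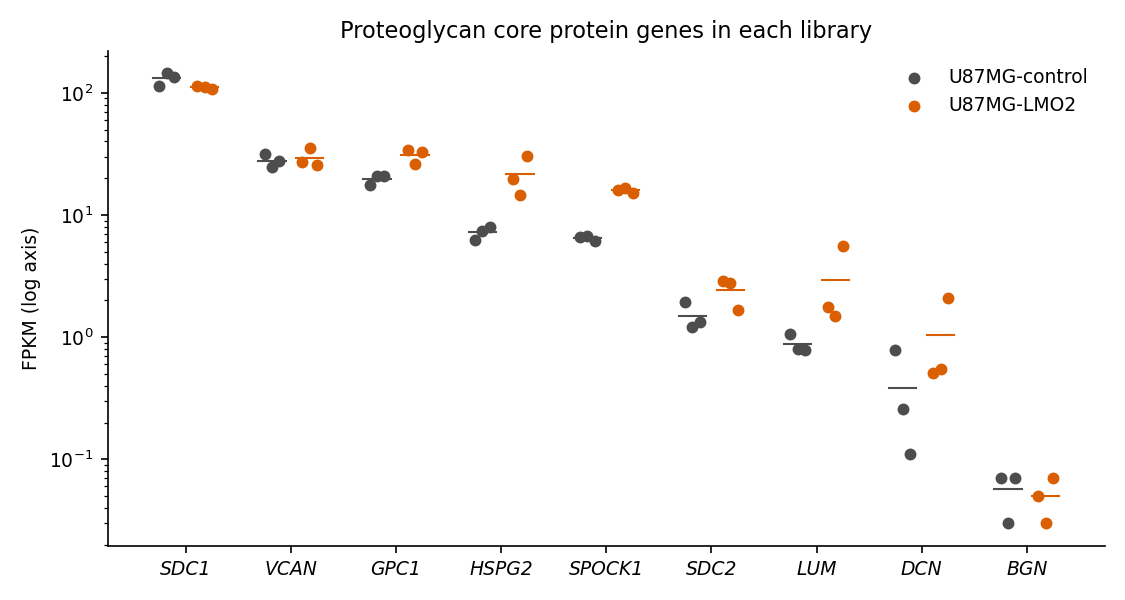
FPKM on a log axis of the 9 genes with a line, with 3 points for U87MG-control (grey) and 3 for U87MG-LMO2 (orange) per gene, replicates 1 to 3 from left to right, and a line at the mean. SPOCK1, HSPG2, GPC1 and LUM have separate groups, higher in U87MG-LMO2. SDC1 is the highest gene in both groups, and the nearest libraries of its groups are at 114.69 and 114.67 FPKM. Replicate 3 is the highest U87MG-LMO2 library for HSPG2, LUM and DCN.

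The other cell-surface members are the syndecans, transmembrane proteoglycans whose short cytoplasmic tails contact the cytoskeleton. SDC1, at chr2:20200797-20225433 on the minus strand, was at 114.69, 144.73 and 135.93 FPKM in U87MG-control and at 114.67, 112.37 and 106.69 FPKM in U87MG-LMO2. On FPKM the nearest libraries of the groups were 114.69 and 114.67, and on normalised read counts (CPM, counts scaled to the TMM-adjusted library total) the groups overlapped. Its log2 fold change was -0.20 ± 0.11 (SE), and -0.38 after the GC correction, and it was not called in either fit. SDC2 was at 1.94, 1.20 and 1.33 FPKM in U87MG-control and at 2.89, 2.78 and 1.67 FPKM in U87MG-LMO2. The groups overlapped, since U87MG-LMO2 replicate 3 lay below U87MG-control replicate 1. Its log2 fold change of 0.75 ± 0.25 (SE) was not called over all 6 libraries and was called, at 0.94, without U87MG-LMO2 replicate 3.

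VCAN encodes versican, a large chondroitin sulfate proteoglycan that binds hyaluronan. It lies at chr5:83471465-83582303 on the plus strand. VCAN was at 31.34, 24.63 and 27.85 FPKM in U87MG-control and at 27.28, 35.63 and 25.60 FPKM in U87MG-LMO2. The groups overlapped, and the highest library was U87MG-LMO2 replicate 2. The log2 fold change was 0.07 ± 0.16 (SE), and it was -0.12 without that library and 0.19 without U87MG-LMO2 replicate 3. VCAN exons overlap VCAN-AS1 on the opposite strand. Versican is made as isoforms of different length, and the tables give a length per gene and library that is not whole and differs between libraries for some genes with several transcripts. The listed length of VCAN was 9684, 9677 and 9318 bases in U87MG-control and 9533, 9814 and 8356 bases in U87MG-LMO2, a difference of the means of -326 bases (2-sided exact permutation test, p = 0.7, where 0.1 is the smallest p that 3 against 3 allows).

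LUM, DCN and BGN encode lumican, decorin and biglycan, small leucine-rich proteoglycans that bind collagen fibrils. LUM and DCN lie next to each other on chromosome 12 on the minus strand, 28652 bases apart. LUM was at 1.07, 0.80 and 0.79 FPKM in U87MG-control and at 1.75, 1.48 and 5.55 FPKM in U87MG-LMO2. The groups did not overlap, and U87MG-LMO2 replicate 3 was far above the rest. The log2 fold change of LUM was 1.81 ± 0.55 (SE) and was not called. Without U87MG-LMO2 replicate 3 it was 0.87 and was called, and it was called at 2.14 without U87MG-LMO2 replicate 2. DCN was at 0.79, 0.26 and 0.11 FPKM in U87MG-control and at 0.51, 0.55 and 2.08 FPKM in U87MG-LMO2. The groups overlapped, and the same library was again the highest. The log2 fold change of DCN was 1.54 ± 0.78 (SE), 0.54 without U87MG-LMO2 replicate 3 and 2.67 without U87MG-control replicate 1. The counts were small, with 22 to 26 for LUM and 2 to 21 for DCN in the U87MG-control libraries. BGN was at 1 to 3 counts in every library, which is at or under the floor of 3 counts, so no fold was computed.

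U87MG-LMO2 replicate 3 held the highest LMO2, HSPG2, LUM and DCN values of all 6 libraries, and the part of LMO2 level in those values was not tested. The fibroblast marker list itself holds DCN and LUM. Of its 10 genes, 8 were tested, 5 were not called, DCN and LUM among them, and 3 rose: COL1A1 by 1.02, COL1A2 by 0.69 and PDGFRB by 0.93 on the log2 scale. The summed level of the list was 327 to 340 FPKM in U87MG-control and 541 to 596 FPKM in U87MG-LMO2, almost all of it from COL1A1 and COL1A2. THY1 was listed at 0 FPKM in the 3 U87MG-LMO2 libraries, and PDGFRA was at 0.13 to 0.25 FPKM there. COL1A1 was at 263.22, 260.53 and 250.23 FPKM in the U87MG-LMO2 libraries and so was lowest in replicate 3, while COL1A2 at 311.72 FPKM and PDGFRB at 8.09 FPKM were highest in it. The part of these markers in the members' levels was not tested, and in bulk RNA more cells of a type and more RNA per cell cannot be told apart. The endothelial and blood cell list summed to 2.22 to 2.49 FPKM in U87MG-control and 2.21 to 2.56 FPKM in U87MG-LMO2, with 0 of 3 tested genes at an unadjusted p under 0.05 in edgeR's test.

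**Figure D2:**
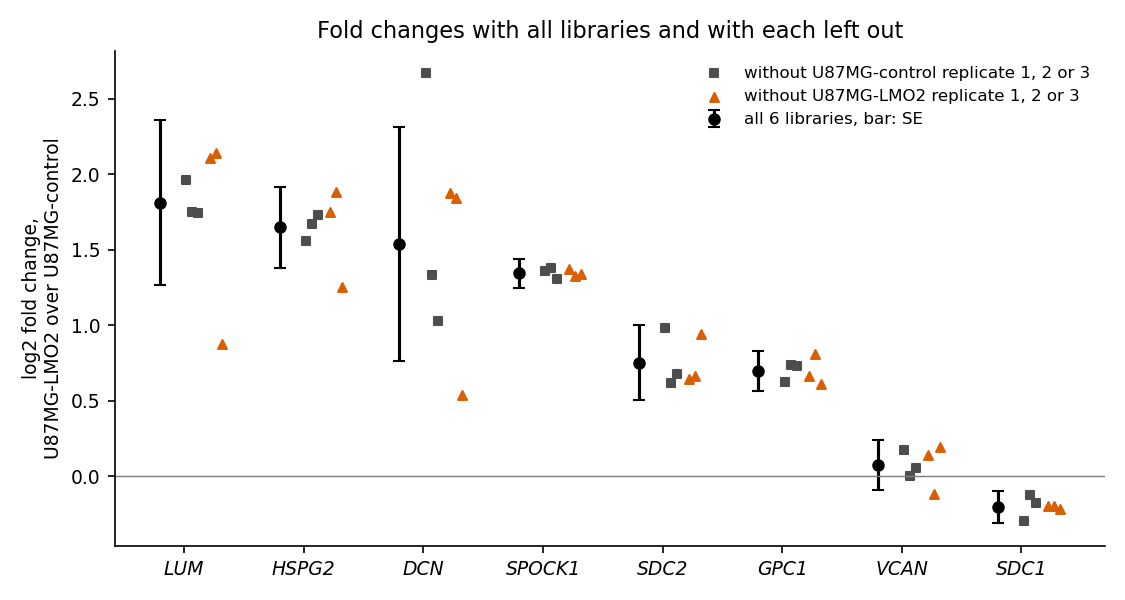
Log2 fold change of the 8 tested genes, U87MG-LMO2 over U87MG-control, with all 6 libraries (black, bar 1 SE) and with each U87MG-control (grey squares) or U87MG-LMO2 (orange triangles) library left out, replicates 1 to 3 from left to right. SPOCK1 stays between 1.30 and 1.38, while LUM falls to 0.87 and DCN to 0.54 without U87MG-LMO2 replicate 3.

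FPKM is scaled to transcript length, so levels can be compared between genes. In U87MG-control the order of the means was SDC1 (131.8 FPKM), VCAN (27.9), GPC1 (19.8), HSPG2 (7.20), SPOCK1 (6.45), SDC2 (1.49), LUM (0.887), DCN (0.387) and BGN (0.0567). The ranges of HSPG2 and SPOCK1 overlapped, as did those of LUM and DCN. In U87MG-LMO2 the order was SDC1 (111.2 FPKM), GPC1 (31.0), VCAN (29.5), HSPG2 (21.7), SPOCK1 (15.9), LUM (2.93), SDC2 (2.45), DCN (1.05) and BGN (0.050). There each neighbour from GPC1 to SPOCK1 overlapped the next, as did LUM, SDC2 and DCN. SDC1 made up 67.1% ± 3.28 (SD, n = 3) of the summed FPKM of the 9 genes in U87MG-control and 51.6% ± 2.71 in U87MG-LMO2. The share of SPOCK1 was 3.31% ± 0.31 and 7.38% ± 0.52, and that of HSPG2 3.67% ± 0.26 and 10.0% ± 3.54. The summed FPKM itself was 180.4 to 206.6 in U87MG-control and 210.5 to 220.2 in U87MG-LMO2.

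**Figure D3:**
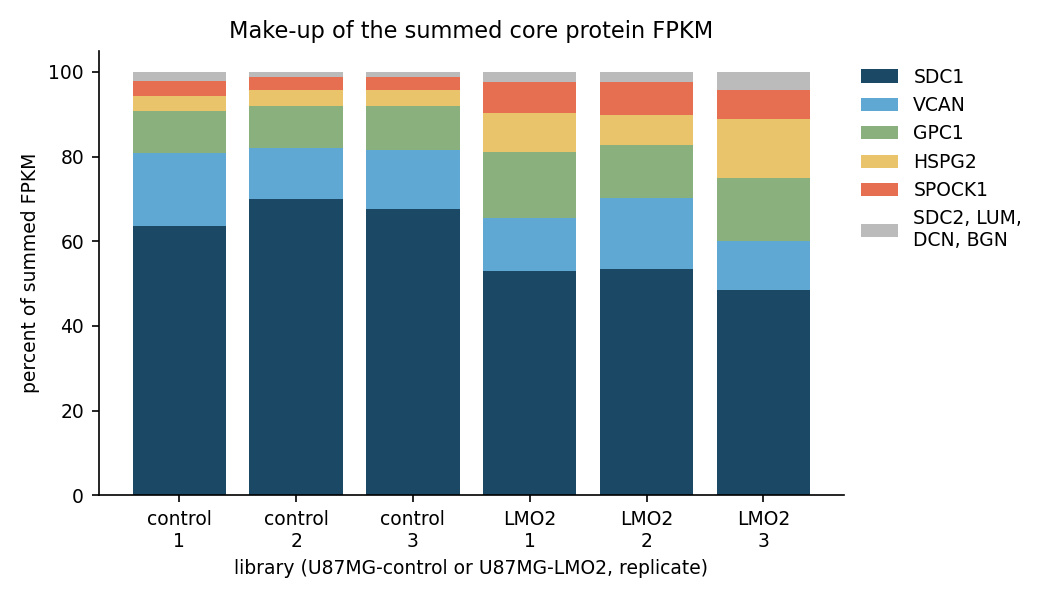
Percent of the summed FPKM of the 9 genes held by each, per library, with SDC2, LUM, DCN and BGN together in grey. SDC1 holds 63.6% to 70.0% in the U87MG-control libraries and 48.5% to 53.4% in the U87MG-LMO2 libraries.

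The genes most like SPOCK1 were sought among 15218 genes with a mean of at least 1 CPM, by the root mean square difference of their log2 CPM from those of SPOCK1 over the 6 libraries, each gene centred on its U87MG-control mean. The 5 nearest were EMC10, a subunit of the membrane protein complex of the endoplasmic reticulum (0.08), GNG14 (0.11), WFDC21P, a transcribed pseudogene (0.13), the gene with Entrez ID 103611081 (0.15) and LGR4-AS1, an antisense RNA (0.15). Their log2 fold changes were 1.29 to 1.46, beside 1.34 for SPOCK1. None of the 5 was on the 7 lists of proteoglycan genes described below. The likeness is a description over 6 libraries of 2 groups, in which any gene with a like fold change and small spread lies near.

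**Figure D4:**
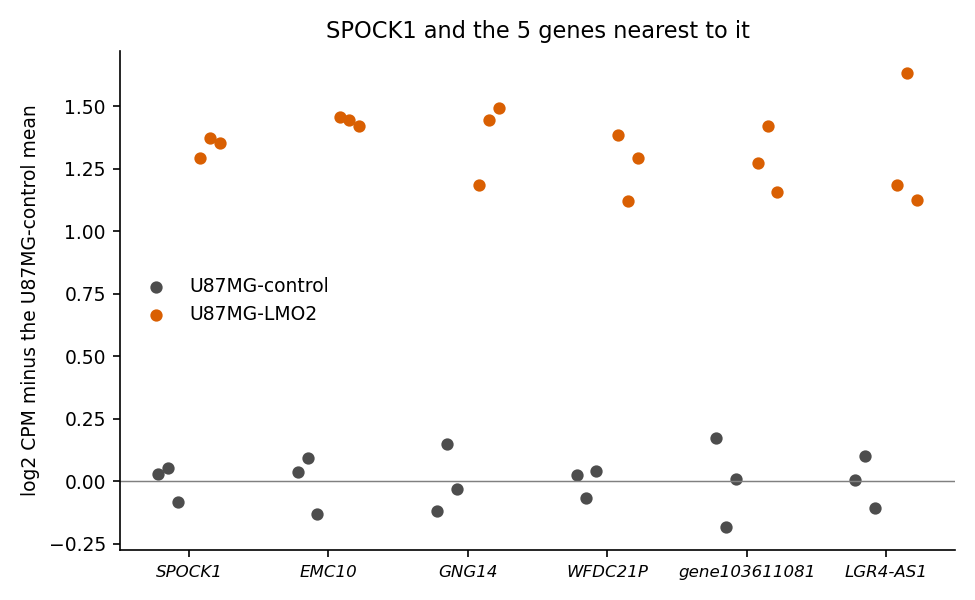
Log2 CPM minus the U87MG-control mean for SPOCK1 and the 5 genes nearest to it, U87MG-control in grey and U87MG-LMO2 in orange, replicates 1 to 3 from left to right. EMC10 follows SPOCK1 most closely, with a root mean square difference of 0.08.

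The other genes of proteoglycan biology were taken as 7 lists of 126 genes from general knowledge, of which 85 were tested. As earlier results of these data were known when the lists were chosen, their counts, shares and medians are a description only. Of these 85 genes, 16 were called higher and 1 lower, or 18.8% and 1.18%, beside 4.72% and 2.75% of all genes tested, and their median log2 fold change was 0.23. Leaving out each library in turn gave 4 to 21 higher calls: 4, 5 and 4 without U87MG-control replicates 1, 2 and 3, 7 without U87MG-LMO2 replicate 1 and 21 without U87MG-LMO2 replicate 3. In 6 of the lists no gene fell; at an unadjusted p under 0.05 edgeR gave 0 lower genes in 5 of these and 2 lower and 1 higher in the donor supply list, and DESeq2 called 0 lower in each. SPOCK3, HAS1, CEMIP and ADAMTS5 were called in all 6 of these fits. The adjusted p-values below are from edgeR's quasi-likelihood test over all 16092 genes.

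Among the 34 other core proteins, 15 were tested, 2 rose, 0 fell and the median log2 fold change was 0.15. The median was 0.03 without U87MG-LMO2 replicate 3, 0.29 without U87MG-LMO2 replicate 2, 0.06 after the GC correction and 0.02 with no filter on low counts, where 1 gene was called lower. SPOCK3, which encodes testican-3, was at 0.403 ± 0.125 FPKM in U87MG-control and 1.75 ± 0.13 FPKM in U87MG-LMO2 (SD, n = 3), a log2 fold change of 2.14 ± 0.28 (SE, adjusted p = 0.00654). SPOCK3 therefore stood below SPOCK1 in level in both groups. The SPOCK3 counts were small, at 5, 11 and 10 in U87MG-control and 45, 48 and 50 in U87MG-LMO2. With limma on log2(FPKM + 1) its log2 fold change was 0.98. SDC4, the syndecan of focal adhesions, was at 17.8 ± 2.74 and 28.2 ± 4.42 FPKM, with a log2 fold change of 0.70 ± 0.15 (SE, adjusted p = 0.028). SDC4 was called in 8 of the 14 alternatives, with adjusted p-values up to 0.121. Of the 6 fits that leave out 1 library, 1 called it. AGRN, the agrin gene and the highest of the list, was at 32.4 ± 3.12 and 47.4 ± 15.6 FPKM and was not called (log2 fold change 0.63 ± 0.23, adjusted p = 0.131). Its log2 fold change was 0.27 without U87MG-LMO2 replicate 3, the library with the most AGRN, and 0.30 after the GC correction.

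Heparan, chondroitin and dermatan sulfate chains start from a short linkage region on a serine of the core protein. Of the 7 linkage genes, all were tested, 3 rose and 0 fell, with a median log2 fold change of 0.36, which was 0.22 with the GC correction and 0.21 when U87MG-LMO2 replicate 3 was left out. PXYLP1, a phosphatase that removes the phosphate from the linkage xylose, rose by 0.93 ± 0.18 (SE, adjusted p = 0.0224). It was called in 9 of the 14 alternatives and in 2 of the 6 fits that leave out 1 library. B3GALT6, a galactosyltransferase, rose by 0.55 ± 0.12 (adjusted p = 0.0305), and XYLT1, the xylosyltransferase that starts the chain, by 0.49 ± 0.11 (adjusted p = 0.0377). B3GALT6 lost its call after the GC correction, at 0.30 (adjusted p = 0.134), and was called in 7 of the 14 alternatives, with adjusted p-values of 0.0058 to 0.134. XYLT1 was called in 6 of the 14 alternatives, with adjusted p-values of 0.00596 to 0.130. Among the fits in which XYLT1 lost its call were limma on log2(FPKM + 1) and log2(FPKM + 0.1), at adjusted p-values of 0.0627 and 0.0629. B3GAT3, which adds the last linkage sugar, was the highest of the list at 53.6 ± 0.61 and 53.8 ± 2.58 FPKM. Its log2 fold change was 0.05 ± 0.10 (adjusted p = 0.778), and it was -0.19 after the GC correction and -0.02 without U87MG-LMO2 replicate 3.

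For heparan sulfate, the chain of HSPG2, GPC1 and the syndecans, 12 of 23 genes were tested, 2 rose, 0 fell and the median log2 fold change was 0.11, or 0.22 after the GC correction. NDST1, which starts the sulfation of the chain, was the highest of the list at 37.5 ± 2.74 and 55.7 ± 2.70 FPKM and rose by 0.60 ± 0.09 (SE, adjusted p = 0.0109). NDST1 was called in 11 of the 14 alternatives and in 3 of the 6 fits that leave out 1 library. EXTL1, a glycosyltransferase, rose from 0.380 ± 0.166 to 2.33 ± 1.14 FPKM, a log2 fold change of 2.75 ± 0.44 (adjusted p = 0.0121). U87MG-LMO2 replicate 3 held the most EXTL1, at 3.64 FPKM, and the log2 fold change without it was 2.31. EXTL1 was called in 10 of its 13 alternatives and in 3 of the 6 fits that leave out 1 library. Its U87MG-control counts were 19, 19 and 7, and limma on log2(FPKM + 1) gave a log2 fold change of 1.23. EXT1 and EXT2, which encode the polymerase, were not called, at log2 fold changes of 0.13 ± 0.10 and 0.03 ± 0.11, and were named after their values were seen.

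For chondroitin and dermatan sulfate, the chains of VCAN, DCN and BGN, 13 of 16 genes were tested, 4 rose, 0 fell and the median log2 fold change was 0.48, or 0.29 after the GC correction. CHPF and CHPF2, which take part in chain polymerisation, rose by 0.81 ± 0.11 (SE, adjusted p = 0.00813) and by 0.51 ± 0.11 (adjusted p = 0.0361). After the GC correction CHPF was at 0.51 and still called, while CHPF2 was at 0.29 and lost its call (adjusted p = 0.0981), and CHPF2 was called in 7 of the 14 alternatives, with adjusted p-values of 0.00446 to 0.149. CHPF2 was the highest of the list at 41.9 ± 0.58 and 58.1 ± 6.71 FPKM. The sulfotransferase genes CHST12 and CHST14 rose by 0.72 ± 0.13 (adjusted p = 0.0184) and by 0.52 ± 0.10 (adjusted p = 0.0248). CHPF was called in 12, CHST12 in 10 and CHST14 in 9 of the 14 alternatives. Of the 6 fits that leave out 1 library, CHPF was called in 4 and CHST12 and CHST14 in 2 each. The list that supplies sugar nucleotides and sulfate donor had 10 of 10 genes tested, 0 called in either direction by edgeR or DESeq2 and a median of -0.07, which was 0.09 after the GC correction and 0.01 without U87MG-LMO2 replicate 3. SLC35B2, which carries the sulfate donor into the Golgi, was its highest gene at 60.1 ± 3.45 and 75.9 ± 6.60 FPKM, with a log2 fold change of 0.38 ± 0.11 (adjusted p = 0.080), or 0.23 after the GC correction.

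**Figure D5:**
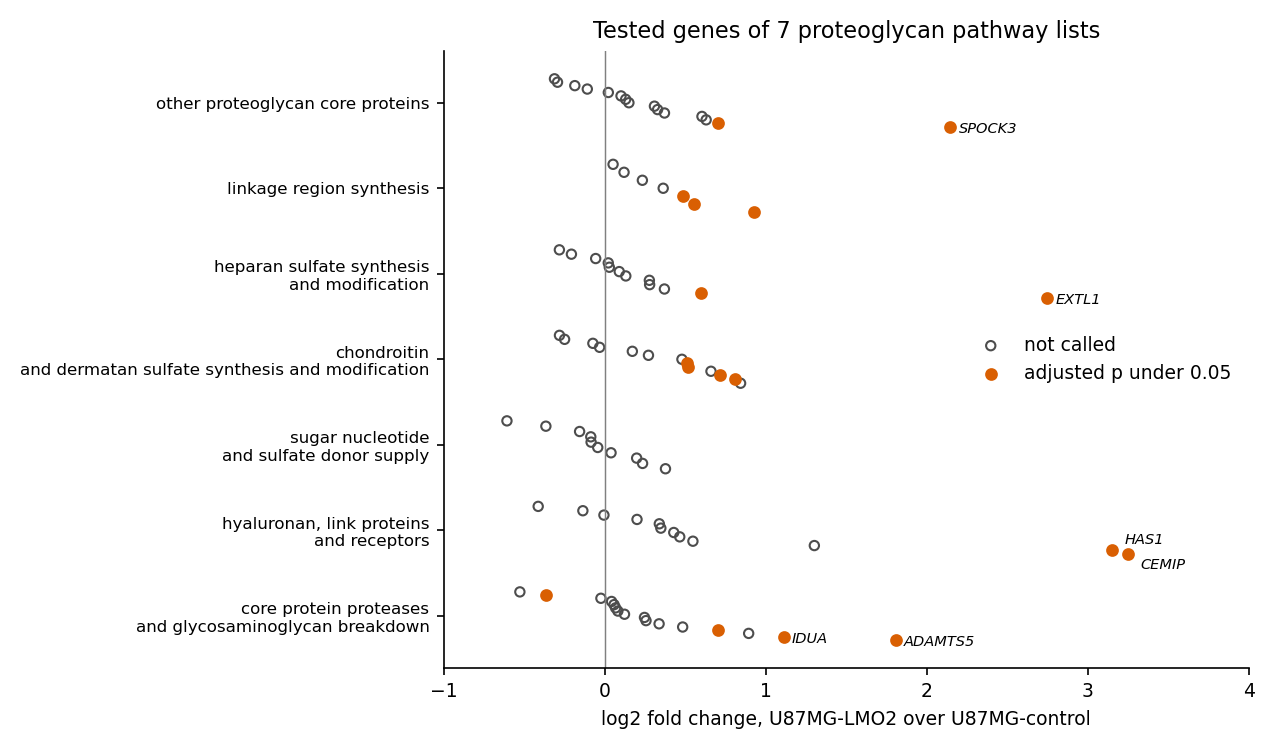
Log2 fold change, U87MG-LMO2 over U87MG-control, of the 85 tested genes in 7 proteoglycan lists, 1 point per gene, with the 17 genes at an adjusted p under 0.05 filled. Called genes past a log2 fold change of 1 are named; HAS1 and CEMIP lie above 3, and no gene of the donor supply list is called.

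Hyaluronan is the chain without a core protein to which VCAN binds. Of its 17 genes, 12 were tested, 2 rose, 0 fell and the median log2 fold change was 0.39, or 0.24 without U87MG-LMO2 replicate 3. HAS1, a hyaluronan synthase, rose from 3.78 ± 2.10 to 32.4 ± 4.51 FPKM, a log2 fold change of 3.15 ± 0.38 (SE, adjusted p = 0.00453). CEMIP, which takes part in hyaluronan breakdown, rose from 2.63 ± 1.38 to 24.6 ± 8.80 FPKM, a log2 fold change of 3.25 ± 0.42 (adjusted p = 0.00576). Both genes were lowest in U87MG-control replicate 1, at 1.41 FPKM for HAS1 and 1.04 FPKM for CEMIP. Without that library their log2 fold changes were 2.76 and 2.88, both still called. A synthesis and a breakdown gene thus rose side by side. CD44, the main hyaluronan receptor, was the highest of the list at 467.8 ± 24.4 and 548.7 ± 53.8 FPKM and was not called (log2 fold change 0.20 ± 0.11, adjusted p = 0.292). Without U87MG-LMO2 replicate 3 CD44 was called, at 0.28 (adjusted p = 0.0462), 1 call among its 14 alternatives, whose adjusted p-values ranged up to 0.575.

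Of 19 genes for core protein proteases and glycosaminoglycan breakdown, 16 were tested, 3 rose, 1 fell and the median log2 fold change was 0.18, or 0.12 without U87MG-LMO2 replicate 3. ADAMTS5, a protease that cuts versican and aggrecan, rose from 2.77 ± 0.71 to 9.43 ± 0.94 FPKM, a log2 fold change of 1.81 ± 0.18 (SE, adjusted p = 0.00293). It was 1.61 and still called without U87MG-control replicate 1, the library with the least ADAMTS5. The lysosomal genes IDUA and SGSH, which act on heparan sulfate, rose by 1.11 ± 0.20 (adjusted p = 0.0188) and 0.70 ± 0.15 (adjusted p = 0.0287). Without U87MG-LMO2 replicate 3 IDUA was at 0.84 and SGSH at 0.56, both still called. Both lost their call without U87MG-LMO2 replicate 1 and without any 1 of the U87MG-control libraries. Their adjusted p-values there reached 0.0934 for IDUA and 0.114 for SGSH. IDS, the highest of the list at 82.2 ± 8.24 and 83.6 ± 8.03 FPKM, had a log2 fold change of 0.04 ± 0.12 (adjusted p = 0.860), which was -0.05 without U87MG-LMO2 replicate 3 and -0.01 without U87MG-control replicate 2. The exons of PXYLP1, XYLT1, NDST1, CHPF, CHPF2, CEMIP, CD44, IDUA and SGSH overlap another gene on the opposite strand, and those of IDS overlap 2 genes on the same strand, so their values could hold reads of the neighbours.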

How the data were processed

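Total RNA of 3 U87MG-control and 3 U87MG-LMO2 libraries was sequenced by a service company. For each library the authors deposited expected counts per gene, which are not normalized, FPKM, scaled by them to length and mapped reads, and a transcript length per gene. The layout is that of RSEM, which no source names. The submitters' processing notes list Bowtie2, BWA and GRCh38.p12; versions and strand setting are not given in the sources used here. The authors' deposited comparison table holds group mean FPKM, used only to check the library tables, and their own ratio and probability, not used. Missing lines were taken as 0. In 134 genes the library FPKM did not give the authors' mean (tolerance 0.001), 129 of them without a line in U87MG-LMO2 replicate 3, whose table had 3 damaged lines; these genes, with 0.35% of U87MG-control counts, were left out of tests.

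Expected counts were rounded and tested with edgeR 4.0.16 in R 4.3.3 (filterByExpr, TMM, glmQLFit and glmQLFTest, 2-sided, no block), adjusted by Benjamini-Hochberg over 16092 genes and called under 0.05. The SE of a log2 fold change is its size over the square root of F. Overlap of groups was judged on CPM. Symbols and promoters came from RefSeq (GRCh38.p14), positions and transcript GC from GENCODE v29 (GRCh38). Alternatives were DESeq2 1.42.0, upper-quartile scaling, no filter, at least 10 counts in every library, limma 3.58.1 on log2(FPKM + 1) and log2(FPKM + 0.1), a replicate block, a GC correction (lowess, span 0.3) and each library left out. The tests were tested on simulated data. The members and lists were chosen with earlier results of these data known. The genes named are the members and, per list, up to 5 called genes with the smallest adjusted p and the gene with the highest mean FPKM; 1 called gene of the breakdown list is not reported here. The floor of 3 counts covers counting error only, as reads were not tagged by molecule. The labels name no batch.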

Additional observations from a re-analysis of the deposited data

Results flagged for a closer look

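HS6ST1, a heparan sulfate 6-O-sulfotransferase gene, was left out of the comparison. Its value in U87MG-LMO2 replicate 3 was read as 0, and the library values did not give the authors' U87MG-LMO2 mean of 11.61 FPKM. HS6ST1 was at 6.55, 8.07 and 7.63 FPKM in U87MG-control and at 11.3 and 11.95 FPKM in the 2 intact U87MG-LMO2 libraries. The lower of these 2 lay above the highest U87MG-control library, and the difference was not tested.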

How the results depend on the processing

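Over the 30 genes that the naming rule picks and that have a log2 fold change and their alternative fits, 412 of 417 refits kept the direction. The 5 that did not were VCAN without U87MG-LMO2 replicate 2 (-0.12), B3GAT3 after the GC correction (-0.19) and without U87MG-LMO2 replicate 3, and IDS without U87MG-LMO2 replicate 3 and without U87MG-control replicate 2 (-0.01). The refits reuse the same libraries, and many of these genes were named because the main fit called them, so a kept direction carries no test. A call was lost in 7 refits of 2 members and in 66 refits of 13 list genes. A call was gained in 5 refits of 2 members and in 1 refit of 1 list gene. Over the fits that leave out 1 library, B3GAT3 ranged from -0.0192 to 0.11 and IDS from -0.0532 to 0.14. Leaving out 1 library gave 1 to 5 members called higher and 0 lower, log2 fold changes of 0.61 to 0.81 for GPC1, 1.25 to 1.88 for HSPG2, 0.87 to 2.14 for LUM, 0.62 to 0.98 for SDC2 and -0.12 to 0.19 for VCAN, 4 to 21 list genes called higher and 0 to 1 lower, and 102 to 1307 of all genes called higher and 42 to 1102 lower. LUM was called under DESeq2 (1.81) and with no filter on low counts (1.81). DESeq2 called 691 of all genes lower, beside 443. The GC correction left 0 list genes lower. With the replicate number as a block, 387 of all genes were called higher and 189 lower, and 10 list genes higher and 0 lower. The labels do not say whether same-numbered libraries were made together. The deviations of same-numbered libraries correlated at -0.12, 0.00 and -0.04. These values cannot decide the question, as noise in single libraries also lowers such a correlation. The blocked fit called SPOCK1, HSPG2 and GPC1, as the fit without it did. DCN, SPOCK3 and EXTL1 had no value with at least 10 counts in every library. Over the 14 alternatives the median of all 7 lists together ranged from 0.10 to 0.24, and that of the donor supply list from -0.17 to 0.09. With limma on log2(FPKM + 1), which shrinks low genes, SPOCK3 was at 0.98 and EXTL1 at 1.23. Fits with 2 libraries in a group have fewer samples, and the cause of the other changes was not tested. Genes at a few counts, such as DCN and BGN, are limited by depth.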
